A study of Mus musculus with 16 samples.

Results

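In single-cell plates of mouse iPSC-derived mesodermal cells, a small set of wells carried transcripts of the pluripotency genes *Tdgf1*, *Utf1* and *Sox2* together. A well was placed in the set when it had at least 200 detected genes and at least 2 UMIs (unique molecular identifiers, which count molecules and not PCR copies) of each of the 3 genes. Of 4594 wells with at least 200 genes on the 12 plates, 80 met this rule and are called pluripotent-like wells here. The remaining 4514 wells of the same plates are called the other wells. Since the wells were picked by their own counts, the levels of these 3 genes are given as a description with no test. The tests below concern other genes, in wells that were nevertheless picked on these 3 genes of the same libraries.

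The cells came from iPSCs of ScxGFP mice, which carry a GFP reporter driven by *Scx* regulatory sequence, and which were reprogrammed from embryonic fibroblasts with Sendai virus vectors. The iPSCs were kept in 2i LIF medium on mitomycin-C-treated fibroblast feeders, turned into mesodermal cells with CHIR99021 and cyclopamine, and either sorted without further treatment (T0) or after 3, 6 or 9 days with 10 ng/ml TGF-β2 (T3, T6 and T9). Viable single cells were sorted into 384-well plates by Hoechst and Sytox staining, with no selection on GFP, and 3 plates were made for each time point by a modified CEL-Seq2 protocol. The study carried 1 selected iPSC clone forward, so the cells stand for a single line. It was not stated that plates of one time point came from separate cultures, so p-values rest on the spread between plates, which may be technical. Where both kinds of wells were fitted together, that spread was pooled over genes. Those p-values and standard errors do not measure the spread of the single gene. T0 cells were detached with trypsin and treated cells with collagenase followed by trypsin, so that TGF-β2, time in culture and the way of detaching the cells cannot be told apart.

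Pluripotent cells hold a network of transcription factors, centred on Oct4 (the product of *Pou5f1*), *Sox2* and *Nanog*, that keeps them able to form every tissue of the embryo. Mouse cells in 2i LIF are in the naive state, in which factors such as *Esrrb*, *Klf2*, *Tfcp2l1* and *Nr0b1* act beside this core and DNA methylation is low. On the way to lineage commitment cells pass through a formative and a primed state, in which *Otx2*, *Dnmt3a* and *Dnmt3b* are high. Mesoderm induction is meant to switch this network off, and TGF-β2 to move the mesodermal cells toward the tendon lineage, which is led by the transcription factor *Scx*.

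Oct4 and *Sox2* bind DNA side by side at a composite element, of which the *Nanog* promoter holds a well-known example. A 14-base form of it, the letters in capitals below with any base at the seventh of them, was searched on both strands of RefSeq promoter windows, which run from 250 bases before to 50 bases after an annotated start. The letters are those of the *Nanog* element itself, so a match there was set by the choice of motif. It was found in 2 of 32851 windows (0.00609%), both of them windows of *Nanog*, which has 2 annotated starts. Of 32 genes of the pluripotency, naive and rule lists, 20 had a window and 1 held the motif. The stretch is shown because *Nanog* is the main marker below that the rule did not use. It lies upstream of the gene at chr6:122707406-122707435 (GRCm38.p6), 61 bases before the nearer and 137 bases before the farther start, and is printed 5′ to 3′ on the minus strand with the motif in capitals.
*Nanog* promoter: accatggaCATTGTAATGCAAAagaagctg
The match is a description of this window and was not tested as a binding site.

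The plates held between 1921125 and 4657093 UMIs each. The pluripotent-like wells were deeper than the other wells on every plate that had any, with a ratio of median UMIs between 1.84 and 2.93. Median UMIs per well were 18781.5 against 9954 (other wells) at T0, 15761 against 5668 at T3, 20616.5 against 8782 at T6 and 20171 against 7827 at T9. A deeper well passes a rule on UMIs more readily. All levels are therefore given in CPM (UMIs of the gene per 1000000 UMIs of the same wells). Tests were repeated against other wells whose UMIs lay between the lowest and highest of the pluripotent-like wells of their plate. Such wells are called matched in depth here, although this limits the range and does not equalize depth. On T0-1 it kept 311 of 355 other wells, with 3976297 UMIs, beside 27 pluripotent-like wells with 569612 UMIs. The 80 wells used 73 of the 384 well barcodes that all plates share, and no barcode was used by more than 3 of them. All 80 wells together, those of T3-2 included, held 1178547 UMIs at T0 and 445493 at T3 to T9. Fits across genes used the 8 plates with at least 3 pluripotent-like wells, namely T0-1, T0-2, T0-3, T3-1, T3-3, T6-1, T9-1 and T9-2 (time point and replicate number). Plate T3-2, with 2 such wells, was left out of the fits, and T6-2, T6-3 and T9-3 had none. The study's mapping summary lists more reads outside annotated features for the T0 plates, T3-2, T6-1, T6-3 and T9-3 than for the others. Of the 5 treated plates in the fits only T6-1 was on the T0 side of this library split, and its values are given beside the comparisons of T0 with later plates.

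The rule genes set the level from which everything else was read. *Tdgf1* (chr9:110939603-110946158, minus strand, GRCm38), which encodes the *Nodal* co-receptor Cripto, was at 1232, 1290 and 1350 CPM in the pluripotent-like wells of T0-1, T0-2 and T0-3. In those of T3-1, T3-3, T6-1, T9-1 and T9-2, the order used for treated plates from here on, it was at 1314, 618.9, 988.9, 605 and 700.1 CPM. The other wells held 17.37 to 28.09 CPM at T0 and 0.53 to 3.91 CPM later. *Utf1* (chr7:139943789-139945112, plus strand), a chromatin factor of pluripotent cells, was at 1624 to 2068 CPM at T0 and at 845.4 to 1856 CPM later. *Sox2* (chr3:34650405-34652461, plus strand) was at 827.6 to 1099 CPM at T0 and at 903.8 to 1554 CPM later.

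Few of the pluripotent-like wells lay just inside the threshold, and more wells lay just outside it. The lowest of the 3 counts was exactly 2 in 3 wells, all at T0, and the sum of these wells held 649 CPM of *Nanog*. In the 55 T0 wells and 22 later wells with at least 3 UMIs of each gene, *Nanog* was at 395 and 595 CPM. Just outside the rule, where the lowest count was 1, were 20 wells at T0, of which 1 had a *Nanog* UMI (3.82 CPM in their sum), and 4 later wells, all of which had *Nanog* (389 CPM). The mesenchymal collagen *Col3a1* was at 916 and 937 CPM in these 2 groups of wells just outside.

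Pluripotent-like wells were most frequent before TGF-β2. They made up 27 of 382 wells (7.07%), 19 of 383 (4.96%) and 12 of 382 (3.14%) on the T0 plates, a mean of 5.06% ± 1.97 (SD, n = 3). On the 9 treated plates they were 0.639% ± 0.602 (SD, n = 9). The T3 plates had 3, 2 and 3 of them, the T6 plates 4, 0 and 0, and the T9 plates 3, 7 and 0. Every T0 plate was above every treated plate, of which T9-2 was the highest with 7 of 381 wells (1.84%). The difference was 4.42 percentage points (p = 0.00909, exact two-sided permutation test over plates, the smallest p that 220 splits allow). Within the plates on the T0 side of the library split it was 4.66 points (exact permutation p = 0.0571, the smallest that 35 splits allow).

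Among the treated time points no order could be read. Pooled shares were 0.695% at T3 (95% exact binomial interval 0.301 to 1.36), 0.348% at T6 (0.0949 to 0.889) and 0.872% at T9 (0.419 to 1.60), and these intervals overlap. They cover counting error only. The 3 plates without such wells allow shares of up to 0.781%, 0.783% and 0.781% by the limit of 3 wells that a count of 0 allows, and of up to 0.956%, 0.959% and 0.956% by the upper end of the exact interval, so that the wells were not detectable there at this number of cells. A share of wells does not give a number of cells in the dish, and fewer such cells cannot be told apart from growth of the others.

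**Figure D1:**
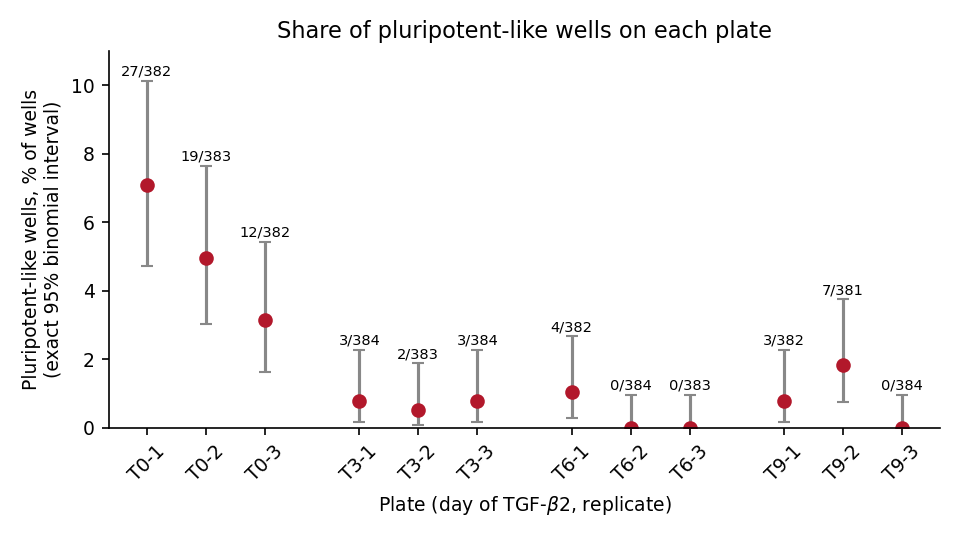
Percent of wells that were pluripotent-like on each of the 12 plates (y axis), by time point (x axis), with exact 95% binomial intervals as bars. The 3 T0 plates sit between 3.14% and 7.07%, all above the treated plates, of which the highest is 1.84%.

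At T0 the wells held transcripts of many other pluripotency genes beside the 3 that picked them. *Nanog* (chr6:122707489-122714633, plus strand) was at 498.6, 266 and 392 CPM on the 3 plates, against 2.28 to 7.58 CPM in the other wells, and no plate of one kind reached the other, as for 22.0% of all genes tested. The difference was 6.48 ± 0.36 on the log2 scale (SE, edgeR quasi-likelihood fit). *Dppa5a* (chr9:78367052-78368177, minus strand), an RNA-binding protein of pluripotent cells, was at 674.1, 514.5 and 566.3 CPM against 9.84 CPM on average (log2 5.87 ± 0.33). Both are markers set for this cell type and not used by the rule, and both stood apart on all plates. At least 1 *Nanog* UMI was seen in 54 of 58 wells (93.1%, against 3.86% of the other wells). With wells thinned to 8000 UMIs the shares were 73.7% and 2.75%.

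All 16 tested genes of the pluripotency list were called higher at T0 (Benjamini-Hochberg adjusted p of 0.05). Their median log2 difference was 4.90 against -0.07 over all genes. The filter kept genes with enough counts in either kind of well, so some were tested only because of their level in the pluripotent-like wells. In the fit of the other wells alone 12 of these 16 genes were tested. The same filter applied to every list, here and on the treated plates. Of the 11459 genes tested, 12.7% were called higher and 16.2% lower (28.9% in all). Of all calls 44.1% were higher, and with DESeq2 size factors 33.7% (1258 higher and 2473 lower). The 3311 calls became 1641 without T0-1 and 1781 without T0-2. *Fgf4*, a growth factor of the inner cell mass, was at 212.4, 114.3 and 222.6 CPM against 1.72 CPM (log2 6.72 ± 0.46). L1td1 (log2 6.02 ± 0.35) and *Tdh*, the threonine dehydrogenase of mouse stem cells (5.95 ± 0.38), were also among the 8 genes with the largest differences. Outside the lists, that group held *Trh*, the thyrotropin-releasing hormone gene (6.43 ± 0.56). *Sall4* (431 against 74.2 CPM, log2 2.51 ± 0.28), the let-7 regulator *Lin28a* (3.01 ± 0.33) and *Tet1* (620 against 70.3 CPM, 3.12 ± 0.28) differed less, and the other wells also held them. *Pou5f1* (chr17:35506018-35510772, plus strand) was low, at 19.31, 29.83 and 48.4 CPM, with a UMI in 19 of 58 wells (32.8%), against 0.275 CPM or 3 UMIs in all in the other wells, too few for a fold change. It has near-identical copies between which reads can be split. Whether this affected its level was not tested, so the level is uncertain.

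Naive-state factors were high as well, and so were genes of the exit from that state. Of 13 tested naive genes 12 were called higher and none lower (median log2 4.67). *Nr0b1*, a repressor bound to the Oct4 network, was at 433.6, 350.5 and 300.1 CPM against 3.6 CPM (log2 6.72 ± 0.38). *Esrrb*, an orphan nuclear receptor, was at 294.9, 243.6 and 266.2 CPM against 5.45 CPM (log2 5.6 ± 0.37). *Klf2* (196 against 7.55 CPM, log2 4.67 ± 0.34), *Klf4* (2.79 ± 0.44) and *Tfcp2l1* (4.12 ± 0.36) were called too. *Zfp42*, the REX1 gene that marks the naive state, was lower in level, at 35.11, 29.83 and 9.68 CPM (log2 4.62 ± 0.72), with a UMI in 24 of 58 wells.

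Of 8 tested genes of the primed state 7 were called higher and 1, *Sall2*, lower. *Otx2* was at 43.9 CPM against 0.489 CPM (log2 6.22 ± 0.68). The de novo methyltransferases *Dnmt3a* (521.4, 581.6 and 842.1 CPM, log2 1.28 ± 0.26) and *Dnmt3b* (268.6, 402.7 and 353.3 CPM, 3.52 ± 0.31) were called, as was their cofactor *Dnmt3l* (698.7, 1258 and 890.5 CPM against 21.9 CPM, 5.42 ± 0.31). With DESeq2 the call of *Dnmt3a* was lost (adjusted p = 0.0885). In the *Nodal* pathway, which signals through the *Tdgf1* protein, 6 of 10 genes were called higher and 2 lower. *Nodal* itself was at 73.73, 57.17 and 29.04 CPM against 0.337 CPM (log2 7.0 ± 0.71), and its inhibitor and target *Lefty1* at 71.98, 82.02 and 203.3 CPM (5.98 ± 0.49). Of 11 genes of FGF and LIF signalling 3 were called higher, the FGF feedback inhibitors *Spry2* and *Spry4* and the FGF target *Etv5*, and 5 lower, *Fgfr1*, *Fgfr2*, *Il6st*, *Stat3* and *Socs3*, the last 3 of them of the LIF pathway. With DESeq2 these counts were 1 and 4.

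**Figure D2:**
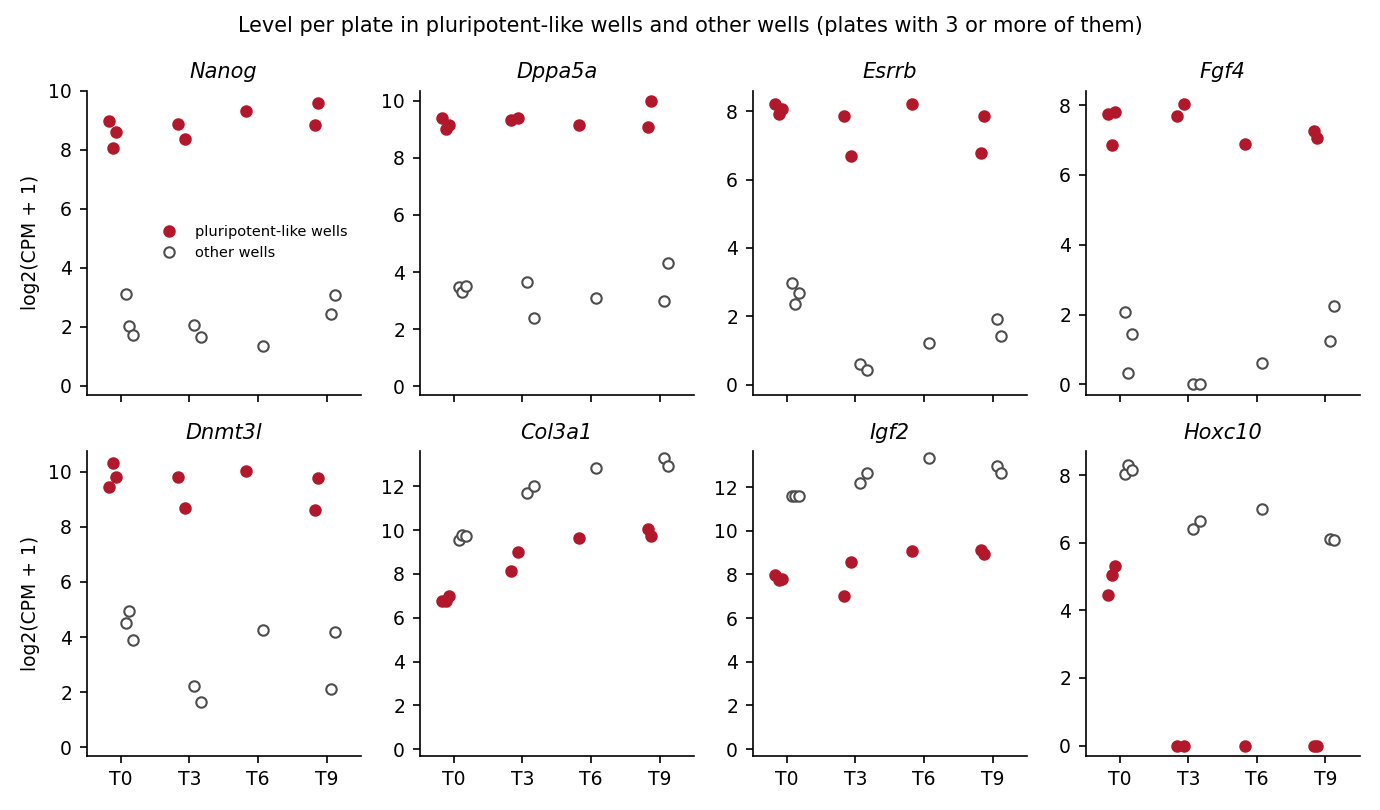
Levels of 8 genes as log2(CPM + 1) (y axis) in the pluripotent-like and the other wells of each plate (x axis, 3 plates at T0 and 5 at T3 to T9), each point 1 plate. *Nanog*, *Dppa5a*, *Esrrb*, *Fgf4* and *Dnmt3l* are higher in the pluripotent-like wells on all 8 plates, and *Col3a1* and *Igf2* are lower on all 8.

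The same wells held less of the mesenchymal transcripts of their neighbours. Of 16 tested mesenchymal genes 15 were called lower at T0 (median log2 -3.31) and 1, *Thy1*, higher, a call that was not made with DESeq2. The fibrillar collagen gene *Col3a1* was at 107.1, 109.4 and 125.8 CPM against 823.5 CPM (log2 -2.87 ± 0.24), with each plate of the other wells between 737 and 871 CPM (29.6% of all genes had their 3 plates below in this way). *Col1a2* was at 22.82, 19.88 and 0 CPM against 203 CPM (-3.60 ± 0.32) and *Col1a1* at 63.2, 32.31 and 43.56 CPM against 291 CPM (-2.67 ± 0.27). *Prrx1*, a transcription factor of limb mesenchyme (36.2 against 469 CPM, log2 -3.68 ± 0.34), and *Pdgfra*, a receptor of mesodermal progenitors (-3.86 ± 0.46), were lower as well. The chromatin protein *Hmga2* was at 212 against 1994 CPM (-3.23 ± 0.27) and fibronectin, *Fn1*, at 212 against 646 CPM (-1.66 ± 0.25). The sum over the mesenchymal list was 634 to 751 CPM per plate in the pluripotent-like wells and 3845 to 4043 CPM in the others. Among genes of at least 100 CPM in the other wells whose plates did not overlap, the 8 largest deficits were those of *Cmtm3* (log2 -5.74 ± 0.53), the Wnt receptor *Fzd1* (-4.71 ± 0.49), the limb factor *Msx1* (-4.32 ± 0.54), the matrix protein *Tgfbi* (-4.31 ± 0.39), the glypican *Gpc6* (-4.28 ± 0.45), *App* (-4.25 ± 0.43), the smooth muscle gene *Tagln* (-4.20 ± 0.48) and *Zfhx4* (-4.14 ± 0.51).

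Positional and imprinted genes followed. Of 39 Hox genes 25 were tested, of which 21 were called lower and none higher at T0 (median log2 -2.77). *Hoxc10*, a gene of the lumbar and hindlimb level, was at 21.07, 32.31 and 38.72 CPM against 286 CPM (log2 -3.30 ± 0.36). Of 13 imprinted genes 11 were called lower and none higher. The growth factor *Igf2* was at 254.6, 213.8 and 222.6 CPM against 3109 CPM (-3.77 ± 0.24), its neighbour H19 at 552 against 2247 CPM (-2.13 ± 0.22), and the cell cycle inhibitor *Cdkn1c* at 147.5, 164 and 125.8 CPM against 949 CPM (-2.71 ± 0.27). *Cdkn1a*, a second inhibitor, was at 168 against 382 CPM (-1.29 ± 0.27), a call that was lost without the plate as a block (adjusted p = 0.0649).

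Before treatment part of the TGF-β machinery was also lower in these wells. Of 10 tested TGF-β ligands, receptors and Smads 5 were called lower, *Tgfbr1*, *Tgfbr2*, *Smad3*, *Tgfb2* and *Tgfb3*, and 1, *Eng*, higher. The receptor gene *Tgfbr1* was at 31.4 against 105 CPM (log2 -1.75 ± 0.37) and *Smad3*, which carries its signal to the nucleus, at 40.1 against 125 CPM (-1.65 ± 0.36). *Tgfbr2* had 2 UMIs in all in the pluripotent-like wells at T0, too few for a fold change. The response list was split, with 5 genes lower and 3 higher of 11. Among them *Acta2* (37.5 against 341 CPM, -3.19 ± 0.32) and the BMP target *Id1* (-2.32 ± 0.30) were lower, and *Ccn2* (2.10 ± 0.31) and *Tgif1* (227 against 52.7 CPM, 2.10 ± 0.29) were higher. Of 10 tendon genes 4 were called lower and none higher, and none was called with wells thinned to 3000 UMIs. *Scx* itself (chr15:76457452-76459458, plus strand) had no UMI in the 58 wells, where the other wells held 8.2 to 12.8 CPM. Its gene is embedded in *Bop1* (chr15:76452989-76477277, minus strand), which was named after that position was seen.

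Epithelial, metabolic and germline genes completed the T0 profile. Of 11 epithelial genes 4 were called higher and 5 lower. E-cadherin, *Cdh1*, was at 200.1, 320.6 and 343.6 CPM against 91.7 CPM (log2 1.59 ± 0.28) and *Epcam*, an adhesion molecule of stem cells and epithelia, at 198 against 24.9 CPM (2.97 ± 0.33), while the keratin *Krt18* was at 15.3 against 196 CPM (-3.59 ± 0.41). Of 15 glycolysis genes 11 were called higher and none lower, led by the glucose transporter *Slc2a3* (813 against 82.5 CPM, 3.28 ± 0.27) and the platelet phosphofructokinase *Pfkp* (356 against 11.8 CPM, 4.87 ± 0.32). Of 9 germ cell genes 7 were called higher, 3 with DESeq2 and 2 of 6 with wells thinned. They included *Dazl*, an RNA-binding protein of germ cells (140 against 5.78 CPM, 4.54 ± 0.43), and *Tfap2c* (39.6 against 14 CPM, 1.5 ± 0.45). *Dppa3*, known as Stella, was called at log2 5.04 ± 0.61. The call of *Tfap2c* was lost without T0-1 and without T0-2 (adjusted p of up to 0.349).

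Proliferation genes gave smaller differences that depended on the method. Of 13 S phase genes 5 were called higher and none lower, and of 12 G2M genes 7 were called higher and 1, *Mki67*, lower. With DESeq2 no G2M gene was called higher and 1 was called lower. Of 9 G1 genes 4 were called lower and none higher. No mitochondrially encoded gene of 13 was called, although 5 were called lower with DESeq2 size factors.

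Of 6 neural genes 2 were called higher and 4 lower, and their sum was 102 to 124 CPM per plate against 208 to 238.5 CPM in the other wells. Of 9 endoderm genes 1 was called higher and 5 lower, with sums of 84.3 to 131 CPM against 232 to 301 CPM. Only 1 of 9 primitive streak genes, *Eomes*, had enough counts to be tested and was called higher, and the sum of that list was 14.5 to 28.1 CPM against 12.2 to 15.7 CPM. Of 3 tested endothelial genes 2 were called higher, *Pecam1*, which pluripotent cells also express, and *Egfl7*, and the sum of that list was above that of the other wells, at 29.0 to 54.4 CPM against 9.70 to 13.7 CPM.

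On the TGF-β2-treated plates the pluripotency profile was again present, in wells surrounded by much more differentiated ones. The 22 wells came from T3 to T9, and the 20 of the 5 plates in the fits were compared with the other wells of those plates. *Nanog* was at 463.8, 326.6, 638, 453.8 and 772.7 CPM against 1.57 to 7.43 CPM in the other wells (log2 6.51 ± 0.32). A *Nanog* UMI was seen in 21 of 22 wells (95.5%, against 1.23% of the others), and with wells thinned to 8000 UMIs in 90.9% against 1.27%. *Dppa5a* was at 644.1, 670.4, 574.2, 536.3 and 1010 CPM against 9.88 CPM (5.50 ± 0.28). As at T0, the plates of the 2 kinds did not overlap for either gene, as for 7.31% of all genes tested.

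All 16 pluripotency genes were called higher on the treated plates too, with a median log2 difference of 5.47, where 11.4% of all genes were called higher and 28.7% lower (40.1% in all). The median difference over all genes was -0.54, so that a change of that size is the common shift under this scaling. *Fgf4* (log2 6.37 ± 0.46) and *Zfp42* (6.21 ± 0.79, with a UMI in 14 of 22 wells) were called, and *Sall4* was at 320 against 11.1 CPM (4.20 ± 0.30). *Pou5f1* was at 0, 34.38, 10.63, 0 and 52.84 CPM, with a UMI in 5 of 22 wells, and the other wells had 4 UMIs in all, so no fold change is given. Of 13 naive genes 11 were called higher, such as *Esrrb* (195 against 1.33 CPM, 6.39 ± 0.42), *Nr0b1* (6.50 ± 0.44) and *Tfcp2l1* (6.65 ± 0.46), and 1, *Tbx3*, lower (-1.26 ± 0.40, adjusted p = 0.0528 with wells thinned). *Klf2* was at 281 against 55 CPM (1.65 ± 0.28). Of 8 primed genes 5 were called higher, *Otx2* among them (3.78 ± 0.71), and 2 lower, *Sall2* and *Dnmt3a* (83.5 against 141 CPM, -1.51 ± 0.33). The call of *Otx2* was lost against other wells matched in depth (adjusted p = 0.231).

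Among genes of at least 100 CPM whose plates did not overlap, *Dazl* had the largest difference on the treated plates outside the rule genes. It was at 25.77, 189.1, 117, 275 and 26.42 CPM, so that T3-1 and T9-2 were low and T3-3 and T9-1 high, against 0.302 CPM or 5 UMIs in all in the other wells (log2 7.74 ± 0.61). *Stra8*, which acts at the entry into meiosis, varied even more, at 412.2, 51.57, 31.9, 591.3 and 26.42 CPM (6.74 ± 0.55). *Mep1b* (7.19 ± 0.52), *AU018091* (7.18 ± 0.51), the uridine phosphorylase *Upp1* (7.15 ± 0.51) and *Rbmxl2* (6.73 ± 0.39) were also among the 8 largest. Of 9 germ cell genes 8 were called higher and none lower. They included *Tfap2c* (169 ± 59.4 CPM, SD, n = 5, against 2.31, log2 5.64 ± 0.44) and the receptor *Kit* (105 against 4.59 CPM, 3.81 ± 0.45). With wells thinned to 3000 UMIs 3 of 6 were called. *Dppa3*, which is on the naive list, was at 186 ± 132 CPM against 1.98 (5.96 ± 0.47).

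All 10 genes of the tendon list rose in the other wells between T0 and the treated plates, where 39.4% of 12743 genes were called, 20.9% higher and 18.4% lower. In the pluripotent-like wells of the treated plates all 10 were called lower than around them (median log2 -4.59, or -4.12 with genes at 0 set to their bound). *Scx* was at 25.77, 34.38, 31.9, 13.75 and 13.21 CPM against 122 to 782 CPM in the other wells (-4.88 ± 0.39), a sum of 9 UMIs over the 5 plates, and its plates lay below those of the other wells, as for 13.7% of all genes. The small proteoglycan genes *Dcn* (0, 0, 31.9, 137.5 and 105.7 CPM against 1348 CPM on average, -5.26 ± 0.32) and *Bgn* (63.2 against 880 CPM, -4.38 ± 0.31) were lower. *Ogn*, of the same family, had 3 UMIs in all (7.51 CPM on average against 274 CPM). *Tnmd*, a late tendon marker, had 2 UMIs in all, 1 on each T9 plate (13.75 and 6.604 CPM), against 74 CPM in the other wells, and its call was lost with DESeq2 (adjusted p = 0.249). No fold change is given for either. The summed tendon list was 77.3 to 509 CPM per plate against 2115 to 5993 CPM, with *Mkx* and *Fmod* at 0 in the pluripotent-like wells.

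TGF-β response genes were mostly lower in these wells than around them. Of 11 response genes 8 were called lower and 1, *Tgif1*, higher (1.19 ± 0.30, lost when wells were thinned, adjusted p = 0.481). *Tgfbi* (10.9 against 394 CPM, log2 -5.24 ± 0.42), the feedback inhibitor *Pmepa1* (-3.88 ± 0.38), *Acta2* (128 against 1618 CPM, -4.29 ± 0.26) and *Ccn2* (92.1 against 176 CPM, -1.73 ± 0.33) were among those lower. *Id1* (-4.05 ± 0.36) and the immediate early gene *Egr1* (204 against 1107 CPM, -3.06 ± 0.24) were lower too. Of the 10 TGF-β ligands, receptors and Smads the same 5 as at T0 were called lower and none higher. *Tgfbr2* was at 15.2 against 71.2 CPM (-2.79 ± 0.52).

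Of 16 mesenchymal genes 15 were called lower and none higher on the treated plates (median log2 -4.23, or -3.87 with genes at 0 set to their bound). *Col1a1* was at 460 against 6399 CPM (-4.43 ± 0.21), *Col1a2* at 546 against 6588 CPM (-4.28 ± 0.20), *Col3a1* at 704 against 6455 CPM (-3.87 ± 0.19) and *Fn1* at 495 against 2057 CPM (-2.64 ± 0.21). *Twist2*, *Snai2* and *Zeb2* had no UMI in the pluripotent-like wells. *Igf2* (418 against 7158 CPM, -4.75 ± 0.20), H19 (-3.73 ± 0.19), *Cdkn1c* (-4.15 ± 0.28) and *Hmga2* (36 against 211 CPM, -3.18 ± 0.39) were lower. Of 25 Hox genes 18 were called lower and none higher, and 24 of the 39 on the list had no UMI in these wells. *Hoxc10* was at 0 on all 5 plates, at least 12.5-fold lower than in the other wells with 3 UMIs over the group as the floor. Of 5 antigen presentation genes 4 were called lower. The class I light chain B2m was at 0, 0, 63.8, 55 and 59.44 CPM against 506.5 CPM (-4.28 ± 0.34).

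**Figure D3:**
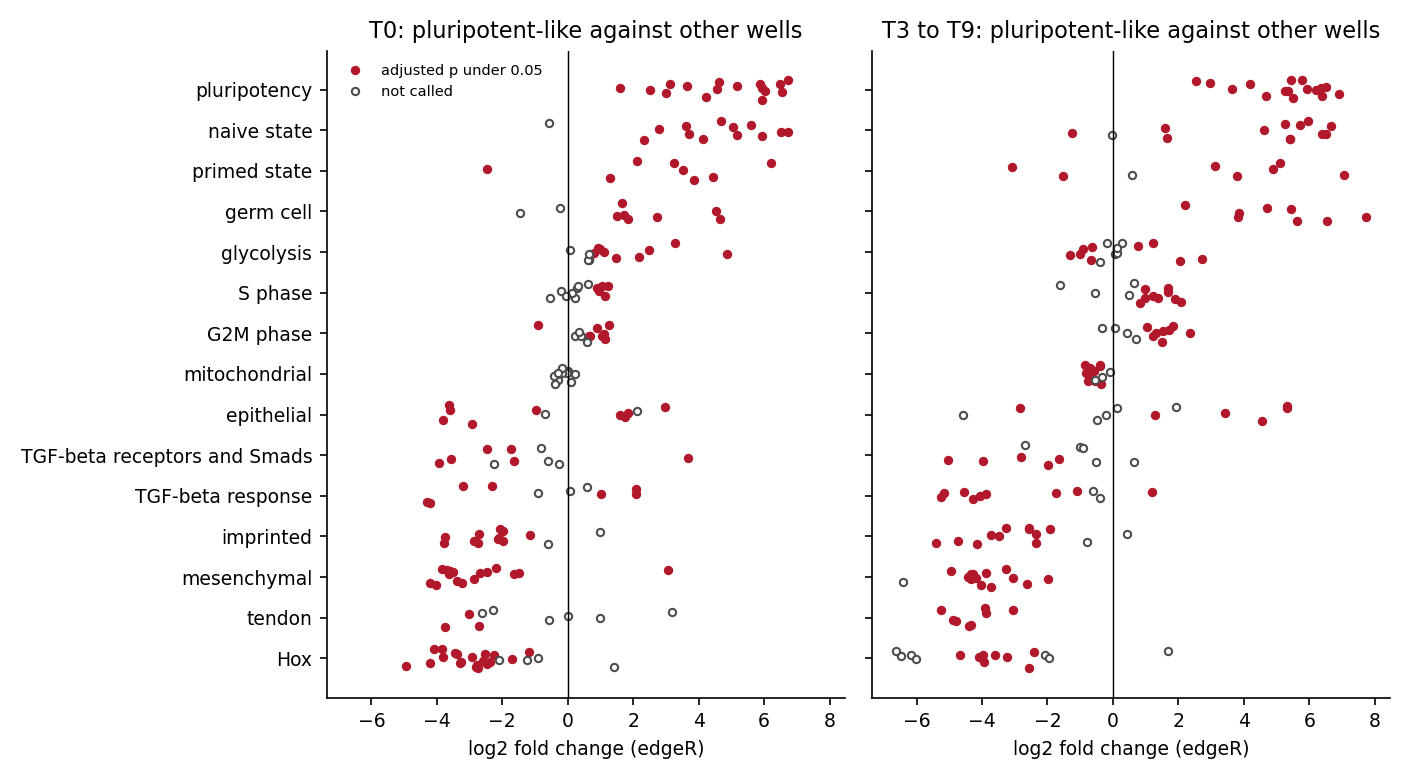
Log2 difference between pluripotent-like and other wells for the genes of 15 lists (rows), at T0 (left) and at T3 to T9 (right), each point 1 gene and genes with a group at 0 left out. Pluripotency genes lie at a median of 4.90 and 5.47, while the medians of the mesenchymal, tendon and Hox lists lie below 0. Single genes of these lists, such as *Thy1* at T0, lie above 0.

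Methylation, cycle and metabolic genes were mixed on the treated plates. *Dnmt3l* was at 901.8, 412.6, 1031, 385 and 878.4 CPM against 8.90 CPM (log2 5.79 ± 0.28), and *Dnmt3b* at 154.6, 0, 53.17, 13.75 and 92.46 CPM against 3.88 CPM (3.12 ± 0.52). Of 13 S phase genes 9 were called higher and of 12 G2M genes 8, none lower. Against other wells matched in depth 6 of 12 S phase genes were higher, and of the G2M genes 1 was higher and 2 were lower. Of 15 glycolysis genes 4 were called higher and 5 lower, or 6 and 1 with matched depth, so no direction is given for the list. *Slc2a3* (1850 against 167 CPM, 2.73 ± 0.21) and *Pfkp* (338 against 50.4 CPM, 2.05 ± 0.27) were higher in each of these fits. Of 13 mitochondrially encoded genes 10 were called lower under the scaling of the fit, with a median equal to the shift of all genes. In CPM their sum was not lower, at 102200 ± 25620 (SD, n = 5) against 88860 ± 14720 in the other wells. Of 11 epithelial genes 5 were called higher and 1 lower, with *Cdh1* at 268 against 7.36 CPM (4.55 ± 0.33).

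The gap between pluripotent-like and other wells was then compared between T0 and the treated plates, each gap being taken within plates. It differed for 687 of 11459 genes (6.0%), moving upward for 134 (1.17%) and downward for 553 (4.83%). Of the calls 19.5% were upward. A move in either direction can widen, narrow or reverse a gap. With DESeq2 size factors 229 were upward and 385 downward (37.3% upward). The 687 calls became 221, 220 and 310 without T0-1, T0-2 and T0-3. The median shift of all genes between the 2 gaps was -0.44 on the log2 scale. Of the 16 pluripotency genes 15 were not called, with *Sall4* the exception (1.69), and the call of *Sall4* was lost against wells matched in depth (adjusted p = 0.87). Much of what follows moved in the other wells, so the values of both kinds are set side by side.

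The upward genes held 6 of the 9 germ cell genes, all of which fell in the other wells in the full comparison. Against wells matched in depth 2 of 7 were called, and with wells thinned to 3000 UMIs none of 6. The gap of *Tfap2c*, a factor of trophoblast and germ cells, grew by 4.13 ± 0.61 (SE). It was at 42.13, 57.17 and 19.36 CPM in the pluripotent-like wells at T0 and at 77.3, 206.3, 170.1, 233.8 and 158.5 CPM later, while the other wells held 12 to 17.61 CPM at T0 and 0.26 to 5.54 CPM later. The gap of *Dazl* grew by 3.21 ± 0.77. The gap moved upward by 4.99 for the ubiquitin ligase gene *Rnf128*, 3.12 for *Slc25a13*, 2.91 for the chromatin remodeller *Chd7* and 2.40 for *Peg10*. *Peg10* was called lower in the pluripotent-like wells at T0 and was not called on the treated plates. The gap of *Cdh1* grew by 2.96 ± 0.42, with 79.8 to 102 CPM in the other wells at T0 and 1.78 to 15 CPM later (log2 -3.07 ± 0.54), against 200.1 to 343.6 CPM and 51.53 to 447 CPM in the pluripotent-like wells. Against wells matched in depth the calls of *Cdh1* (adjusted p = 0.215) and *Dazl* (0.173) were lost, as was that of *Tfcp2l1* (0.48), whose gap grew by 2.53 in the full comparison. With wells thinned to 3000 UMIs those of *Tfap2c* (0.0589), *Cdh1* (0.070), *Dazl* (0.393), *Rnf128* (0.178), *Chd7* (0.405), *Peg10* (0.142) and *Tfcp2l1* (0.139) were lost.

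Downward, the gap of *Klf2* shrank, by -3.02 on the log2 scale, and that of *Klf4* by -2.82. Both calls were lost against wells matched in depth (adjusted p of 0.0523 and 0.099). *Klf2* was at 180.8 to 218.7 CPM in the pluripotent-like wells at T0 and at 192.5 to 412.2 CPM later, while in the other wells it rose from 7.1 to 8.4 CPM to 23.4 to 81.5 CPM (log2 3.33 ± 0.48). Of 15 glycolysis genes 10 were downward and none upward, with *Pfkp* at -2.83 and the pyruvate dehydrogenase kinase gene *Pdk1* at -3.17. In the other wells 14 of the 15 rose and none fell. Against wells matched in depth 3 of the 15 were downward (median log2 -0.57 in place of -1.26). Of 11 TGF-β response genes 5 were downward, *Ccn2* by -3.83 among them, which was at 27.3 to 28.8 CPM in the other wells at T0 and at 79.7 to 300 CPM later. That count was 2 with DESeq2 and 2 of 10 with matched depth. Extracellular genes such as *Sulf1* (-6.06), which edits heparan sulfate, and *Ltbp4* (-4.77), which binds latent TGF-β, and the hypoxia-linked *Ndufa4l2* (-6.31) also had negative values. *Lefty1* was at -3.01, a call that was lost against wells matched in depth (adjusted p = 0.83) and without T0-3 (0.0900).

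The pluripotent-like wells themselves changed in fewer genes. Between T0 and T3 to T9, 54 of 2880 genes were called (1.88%), 39 higher (1.35%) and 15 lower (0.521%), at an adjusted p of 0.05 in edgeR. In the other wells of the same plates 48.9% of 2855 of these genes were called, 17.5% higher and 31.4% lower. The sums over few wells are shallow, with 38812 to 151412 UMIs per plate on the later side, so that a change in a gene of low level was not detectable. Of 14 tested pluripotency genes none was called, by edgeR or by DESeq2. *Nanog* was at 385.5 ± 116.4 CPM (SD, n = 3) at T0 and 531 ± 175 CPM (n = 5) later (log2 0.69 ± 0.30, adjusted p = 0.223), and *Dppa5a* at 585 ± 81.4 and 687 ± 188.5 CPM (0.45 ± 0.27, adjusted p = 0.406), and the plates of both overlapped.

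Of the 9 tested naive genes 1, *Dppa3*, rose and none fell, and of the 3 tested germ cell genes 1, *Tfap2c*, rose and none fell. *Dppa3*, which protects the maternal genome of the early embryo from demethylation, was at 64.96, 17.4 and 33.88 CPM at T0 and at 25.77, 154.7, 382.8, 137.5 and 231.2 CPM later (log2 2.49 ± 0.50, adjusted p = 0.00675 in edgeR). Plate T3-1 lay within the T0 range and T6-1, which is on the T0 side of the library split, was the highest. A *Dppa3* UMI was seen in 14 of 58 wells at T0 (24.1%) and in 15 of 22 later (68.2%), or in 15.8% and 50% after thinning to 8000 UMIs. *Tfap2c* rose by 2.23 ± 0.43 (adjusted p = 0.00623 in edgeR), its 5 later plates all above the 3 T0 plates, and was in 26 of 58 (44.8%) and 16 of 22 wells (72.7%). In the other wells *Tfap2c* fell (-2.02 ± 0.66, adjusted p = 0.0311 in edgeR), a call that was lost without each T0 plate and without T9-2 (adjusted p of 0.0551 to 0.107).

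The de novo methyltransferases fell. *Dnmt3a* was at 521.4, 581.6 and 842.1 CPM at T0 and at 0, 206.3, 191.4, 0 and 19.81 CPM later (log2 -2.80 ± 0.52, adjusted p = 0.00407 in edgeR), and the plates did not overlap. In all genes tested, 9.72% had all later plates below all T0 plates. With DESeq2 the call of *Dnmt3a* was lost (adjusted p = 0.2). *Dnmt3b* was at 268.6 to 402.7 CPM and later at 154.6, 0, 53.17, 13.75 and 92.46 CPM (-2.27 ± 0.45, adjusted p = 0.00653 in edgeR), and it fell in the other wells as well (-2.43 ± 0.49). A *Dnmt3b* UMI was in 50 of 58 wells (86.2%) and 10 of 22 (45.5%), or 71.9% and 31.8% after thinning. On T6-1, which shares its side of the library split with T0, *Dnmt3a* was at 191.4 CPM and *Dnmt3b* at 53.17 CPM, both below all T0 plates. The third member, *Dnmt3l*, was not called.

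**Figure D4:**
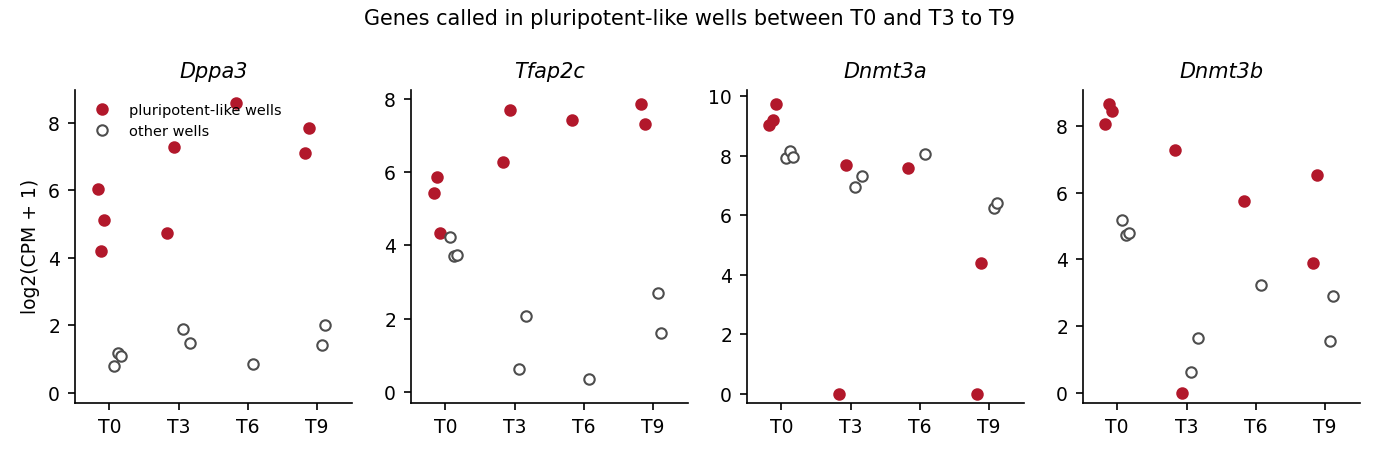
Levels of *Dppa3*, *Tfap2c*, *Dnmt3a* and *Dnmt3b* as log2(CPM + 1) (y axis) in the pluripotent-like and other wells of the 3 T0 plates and 5 treated plates (x axis), each point 1 plate. In the pluripotent-like wells *Tfap2c* lies above and *Dnmt3a* and *Dnmt3b* lie below the T0 plates on all 5 treated plates, while *Dppa3* overlaps on T3-1.

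These calls rest on few plates. Leaving out single plates kept 5 of the 15 named calls in every case (*Col1a1*, *Col1a2*, *Col3a1*, *Dlk1* and *Mat2a*). The highest adjusted p was 0.120 for *Dppa3* (lost without T0-2, T0-3 or T9-2), 0.0601 for *Tfap2c* (without T0-1 or T0-3), 0.0601 for *Dnmt3a* (without T0-3) and 0.0704 for *Dnmt3b* (without T0-2 or T0-3). The 54 calls became 22, 16 and 11 without T0-1, T0-2 and T0-3, 24 without T9-2, 175 without T3-1 and 184 without T6-1. With wells thinned to 3000 UMIs 11 of 229 tested genes were called.

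A further set of changes went the same way in both kinds of wells. *Mat2a*, the enzyme that makes the methyl donor S-adenosylmethionine, was at 723.3, 1225 and 958.3 CPM at T0 and at 103.1, 154.7, 499.8, 123.8 and 171.7 CPM later (log2 -1.97 ± 0.34) and fell by 1.98 in the other wells. T6-1, at 499.8 CPM, was the highest of the treated plates. *Hmga2* (-2.62 ± 0.50) and the imprinted retrotransposon-derived gene *Peg10* (375.7, 320.6 and 566.3 CPM, then 25.77, 17.19, 138.2, 96.25 and 165.1 CPM, -1.79 ± 0.40) fell in both, with -2.90 and -4.53 in the other wells. *Slc2a3* (753.1, 969.4 and 716.3 CPM, then 2319, 2304, 1276, 1884 and 1466 CPM, 1.35 ± 0.26) and the aldolase gene *Aldoa* (1.90 ± 0.35) rose in both, with 1.45 and 2.50 in the others. Of the 39 genes that rose, 28 also rose in the other wells, and of the 15 that fell, 9 also fell there. *Ptch1*, the Hedgehog receptor (17.56, 17.4 and 19.36 CPM, then 128.8, 206.3, 31.9, 41.25 and 118.9 CPM, 2.65 ± 0.64), and *Ifitm1*, an interferon-induced membrane protein (64.96, 19.88 and 48.4 CPM, then 257.7, 171.9, 233.9, 577.5 and 66.04 CPM, 2.65 ± 0.53), rose too. Without single plates the call of *Ptch1* reached an adjusted p of 0.354 and that of *Peg10* one of 0.210.

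Of 5 tested mesenchymal genes 4 rose, the 3 collagen genes below among them, and none fell. *Col1a2* went from 22.82, 19.88 and 0 CPM to 103.1, 223.5, 1053, 646.3 and 706.7 CPM (log2 5.23 ± 0.60, adjusted p = 2.09e-05 in edgeR), and *Col1a1* from 63.2, 32.31 and 43.56 CPM to 103.1, 257.9, 723.1, 728.8 and 488.7 CPM (3.52 ± 0.46). *Col3a1* (2.88 ± 0.37) went from 107.1 to 125.8 CPM up to 283.4, 515.7, 797.5, 1073 and 852 CPM, and the Notch-related *Dlk1* (2.73 ± 0.36) from 146.7 to 228.2 CPM up to 541.1, 842.4, 776.2, 1320 and 1479 CPM. All later plates lay above all T0 plates for these 4 genes, as for 3.09% of the genes tested. *Mgp*, a matrix protein that inhibits calcification, had no UMI at T0 and 51.57 to 277.4 CPM later (at least 85.2-fold higher with 3 UMIs over the group as the floor), and *Col6a2* was at least 42.6-fold higher.

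The same genes rose in the other wells. Their *Col1a2* was at 197 to 207 CPM at T0 and at 2309, 2966, 10810, 9649 and 7210 CPM later (5.47 ± 0.63), and the 3 plates that were high there, T6-1, T9-1 and T9-2, were also the 3 highest in the pluripotent-like wells. The later pluripotent-like wells held 0.0829 of the level of the other wells for *Col1a2*, 0.0719 for *Col1a1*, 0.109 for *Col3a1*, 0.0657 for *Mgp* and 0.144 for *Dlk1*. Of the 39 genes that rose, 8 were at under 0.2 of the level of the other wells and 25 were above it, such as *Dppa3* (93.9 times), *Tfap2c* (73.2) and *Slc2a3* (11.1). Over the 9 genes that rose at least 4-fold to at least 1000 CPM in the other wells, the ratio of pluripotent-like to other wells had a median of 0.0789 and ran from 0.0408 to 0.148. The part of RNA from other cells in these levels was not tested.

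**Figure D5:**
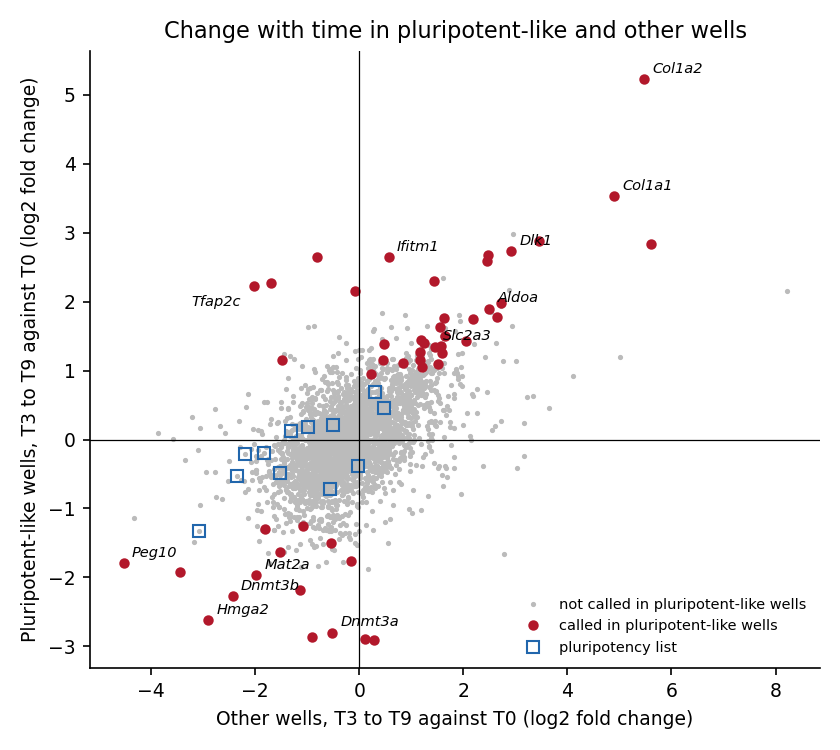
Log2 change from T0 to T3 to T9 in the other wells (x axis) and in the pluripotent-like wells (y axis), each point 1 of 2852 genes tested in both, with those called in the pluripotent-like wells marked. Collagen genes rose in both, while *Tfap2c* rose in the pluripotent-like wells and fell in the other wells, a fall whose call was lost without each T0 plate or T9-2.

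The wells also differed among themselves. Across the 58 wells at T0 *Nanog* had a lowest, median and highest level of 0, 303 and 1760 CPM, *Dppa5a* of 58.7, 569 and 1467 CPM and *Esrrb* of 0, 204 and 900 CPM. *Dppa5a* was thus present in every T0 well, while *Nanog* and *Esrrb* were missing from some. *Dppa3* (0, 0 and 1122 CPM) and *Otx2* (0, 0 and 875.5 CPM) had no UMI in most T0 wells and were high in a few, and *Dnmt3b* ranged from 0 over 209 to 1949 CPM. *Col3a1* was at 0, 101 and 367 CPM, with a median of 725 CPM in the other wells, so its highest pluripotent-like well was below the median of the others.

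In the 22 later wells *Nanog* was at 0, 618 and 1574 CPM, *Dppa5a* at 234, 643 and 1478 CPM, *Dppa3* at 0, 102.5 and 1200 CPM and *Dnmt3b* at 0, 0 and 313 CPM. *Col3a1* was at 209, 705 and 1441 CPM and *Col1a2* at 0, 542 and 1261 CPM, with UMIs of *Col1a2* in 20 of 22 wells, against medians of 5788 and 5771 CPM in the other wells. No later well was free of *Col3a1*, and none reached the median of the other wells for either collagen. A level of 0 in a single well of this depth allows up to 3 UMIs, so that 0 is not absence.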

How the data were processed

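Single cells of 12 plates (3 each at T0, T3, T6 and T9) were measured by CEL-Seq2. The table the authors deposited gives UMI counts, whole numbers per well, without normalization or filter, after alignment to GRCm38 with HISAT2 2.2.1, assignment with featureCounts and counting with UMI-tools 1.0.1, per the labels. Of 29632 entries 3 had identifiers outside Ensembl and held 0.0642% of UMIs. Plate totals ran from 1921125 to 4657093. Single cells were sorted, and no doublet caller was run. Counts of pluripotent-like wells and of other wells were summed per plate for plates with at least 3 such wells, which drops T3 replicate 2 from the fits, and tested with edgeR 4.0.16 in R 4.3.3 (filterByExpr, TMM, quasi-likelihood test, plate as a block where both kinds of wells were compared). Calls were made where the Benjamini-Hochberg adjusted p was under 0.05. In the fit of both kinds of wells the spread was pooled over genes. The standard errors printed with its log2 differences therefore do not show a gene's own spread between plates. CPM are UMIs per 1000000 UMIs of the summed wells. Plates were the replicates. Shares of wells were compared by exact permutation with Python 3.11.15 and scipy 1.17.1, and intervals are exact binomial (Clopper-Pearson). Named genes are those of 25 lists and, for each comparison, the 8 with the largest log2 difference in each direction among called genes whose plates do not overlap and whose mean is at least 100 CPM in the higher group. *Bop1* is the exception. 1 gene that the rule names is not reported here. Those given by name were chosen from these after their values were seen. The members and lists were chosen with earlier results of these data known. Alternatives were DESeq2 1.42.0, its size factors, no filter, other thresholds of the rule, thinning to 3000 UMIs, other wells matched in depth, and plates or blocks left out. Promoter windows are from RefSeq (GRCm38.p6). Scripts were tested on simulated data. A bulk tendon table in the same series and a barcode list were not used here.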

Additional observations from a re-analysis of the deposited data

Results flagged for a closer look

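On the treated plates 58 sets of values were tested for a plate that stands apart from the rest. These were the share of wells over the 9 treated plates and the levels of single genes over the 5 in the fits. The gap of a plate to its nearest neighbour was set against the whole range. In this way 3 were found, all of them genes, where chance gives about 1 in 20. *Dppa5a* was at 1010 CPM in the pluripotent-like wells of T9-2, with the next plate at 670.4 CPM and a median of 644.1 CPM. *Egr1* was at 25.77 CPM in those of T3-1, with the next plate at 224.6 CPM. *Mat2a* was at 499.8 CPM in those of T6-1, with the next plate at 171.7 CPM.

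The gap between pluripotent-like and other wells differed between T0 and T3 to T9 for 687 genes by the interaction term of the edgeR fit. Among those named, the gap moved upward on the log2 scale by 4.99 for *Rnf128*, 4.13 for *Tfap2c*, 3.21 for *Dazl* and 3.12 for *Slc25a13*. It moved upward by 2.96 for *Cdh1*, 2.91 for *Chd7*, 2.53 for *Tfcp2l1*, 2.40 for *Peg10* and 1.69 for *Sall4*. Its change was -6.31 for *Ndufa4l2*, -6.06 for *Sulf1*, -4.77 for *Ltbp4*, -3.83 for *Ccn2*, -3.17 for *Pdk1*, -3.02 for *Klf2*, -3.01 for *Lefty1*, -2.83 for *Pfkp*, -2.82 for *Klf4* and -2.79 for *Dnmt3a*. Of these 19 calls 15 held without any single plate, and those of *Dazl* (adjusted p = 0.0549 without T0-2), *Klf4* (0.0782 without T0-1), *Lefty1* (0.0900 without T0-3) and *Tfcp2l1* (0.0551 without T0-2) did not.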

How the results depend on the processing

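The number of genes tested differed between settings, so counts of calls alone cannot be compared. Genes called at T0 between pluripotent-like and other wells numbered 3311 of 11459 tested, and 1490 of 8787 with wells thinned to 3000 UMIs. On the treated plates 4595 of 11459 were called, 2678 of 8787 with thinning and 2571 of 7176 against other wells matched in depth. For the difference of the 2 gaps 687 of 11459 became 374 with DESeq2 and 294 without the plate as a block. That count was 377 of 8787 with thinning and 211 of 7176 with matched depth. For pluripotent-like wells between T0 and T3 to T9, 54 of 2880 became 133 with DESeq2 and 22 with the replicate number as a block. Counts there were 142 of 17895 with no filter and 127 of 2232 with at least 1 UMI of each rule gene. With thinning 11 of 229 were called. Leaving out single plates gave 1641 to 3898, 3844 to 4506, 220 to 828 and 11 to 184 calls for these comparisons in turn. In the other wells it gave 2962 to 5941 in place of 5017. The fall in the share of wells was 3.41 to 5.38 points without single plates (exact permutation p of 0.0121 to 0.0364), and 4.66 points (exact permutation p = 0.0571) on the T0 side of the library split. With replicate numbers as blocks its exact p was 0.0313.

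Replicate numbers were not shown to pair plates. Of 18 pairs with the same number 4 had a correlation over 0.1 (-0.642 to 0.589), and 4 of 12 plates correlated best with their own number. The block ended the calls of *Dppa3* (adjusted p = 0.0616), *Ptch1* and *Peg10* (0.1145 each) in edgeR, and of *Tfap2c* in the other wells (0.0663). Plates with 2 or more such wells, an alternative chosen after seeing the data, gave 3390, 4927, 609, 58 and 4719 calls. Of 2986 alternative values for 162 named gene results 2920 kept direction and call, 66 kept direction only and none turned. A setting in which the filter dropped a gene gave no value and is not counted. The change of *Ptch1* in the pluripotent-like wells, for example, was tested in 5 of the 8 fits without a single plate. The 20 pluripotent-like wells behind the later sums limit what could be detected for genes of low level.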
